A study of Homo sapiens with 3 samples.

Results

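The genes described here encode the proteasome: the subunits of its core and caps, the chaperones that assemble them, and the activators and inhibitor that bind the core. They were chosen by name alone, as the probes whose RefSeq accession belongs to a gene with a symbol that starts with PSMA, PSMB, PSMC, PSMD, PSME, PSMF or PSMG. The rule found 56 genes with 79 probes, of 22439 named genes and 31104 named probes on the array. Of these genes, 48 encode proteasome subunits, chaperones, activators or the inhibitor and carry 65 probes, and they are called the members. The other genes are 6 non-coding RNAs and 2 protein-coding genes whose symbols only start like a member's, and they are given apart.

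Gene expression was measured in A549, an established line of human lung adenocarcinoma cells, on 3 single-colour Agilent arrays. The conditions were mock transfection, *miR-139-5p* and *miR-139-3p*, and the study's methods give 10 nM for the transfected precursors. Mock-transfected cells are the control, and the labels name no further agent or genetic change in any group. The mock label is transfection reagent only, so the control holds no small RNA. In a comparison with mock, the effect of a strand and that of any transfected small RNA cannot be told apart. Each condition had 1 array, so no difference has a replicate check or a test, and precision is limited by the number of arrays.

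The proteasome is the barrel-shaped protease that degrades proteins tagged with ubiquitin. Its core particle, the 20S, is built of outer alpha rings that gate the entry and inner beta rings that hold the proteolytic sites, and its regulatory cap, the 19S, recognises, unfolds and feeds in the substrate. Interferon induces beta subunits that replace the constitutive catalytic ones and form the immunoproteasome, and it induces an alternative cap, PA28 alpha/beta, both known for their part in preparing peptides for MHC class I. The constitutive genes are known to be transcribed together through NFE2L1, which binds antioxidant response elements.

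The miRNAs are the mature strands of one hairpin, shown here because each names the agent of its array. Both are given from RefSeq on GRCh38.p14, 5′ to 3′, with the seed, bases 2 to 8, in capitals.
*hsa-miR-139-3p*, chr11:72615066-72615088, minus strand: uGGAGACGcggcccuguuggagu
*hsa-miR-139-5p*, chr11:72615102-72615124, minus strand: uCUACAGUgcacgugucuccagu
These data hold no measure of the binding of either strand to a member.

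A level is the processed signal of a probe divided by the 75th percentile of its own array, which was 93.6, 88.9 and 81.0 scanner units in mock, after *miR-139-5p* and after *miR-139-3p*. It was compared between arrays for the same probe, and signals of different probes were ranked only to class probes and genes as bright or dim. A log2 fold change of a gene averages those of its probes that stood well above background in each of the conditions compared. Where a gene had no such probe but stood well above background on either array, its value is a bound. The other array was then set no lower than its lowest level well above background, and bounds of the wrong sign were dropped. No member's value is a bound, while the shares of all named genes include bounds. A gene was called lower or higher past 0.5 in size. Over all members the rule left 46 with a value on every array. *PSMA8*, the alpha subunit of the testis, lay between 0.0134 and 0.0151 times the 75th percentile and was not well above background on any array. The same held for *PSMB11*, the beta subunit of the thymus, whose probes lay between 0.0118 and 0.0168.

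The *miR-139-3p* array was the only one on slide 2, with the others on slide 1, so its slide and its transfection cannot be told apart. Both comparisons share the mock array. Between 48.1% and 53.1% of spots were well above background on an array and 0 were saturated. Over 7 spike-in probes the log2 fold change after *miR-139-3p* had a mean of 0.19 and an SD of 0.13. The epithelial markers were well above background on every array, 5 of 5, and so were *AKR1B10*, *AKR1C1*, *AKR1C3* and *ALDH1A1*, enzymes that A549 cells are known to make in abundance. Some of these markers moved after *miR-139-3p*, with *AKR1B10* at -1.44, *AKR1C1* at -0.72, *AKR1C3* at -0.61 and *ALDH1A1* at -0.06, and of the epithelial ones *KRT8* at -0.74, *KRT18* at -0.84 and *EPCAM* at 0.97. The epithelial markers also moved after *miR-139-5p*, with *KRT8* at -0.85, *KRT18* at -0.77, *KRT19* at -0.525, *CDH1* at -0.54 and *EPCAM* at 0.17. Of 2 blood cell markers with a probe, 1, 1 and 2 were well above background in mock, after *miR-139-5p* and after *miR-139-3p*. Of 4 fibroblast and endothelial markers, 2, 1 and 2 were, with *COL3A1* and *PECAM1* not well above background on any array. *COL1A1* was at 1.41 after *miR-139-5p* and -0.61 after *miR-139-3p*, and *VWF* was at 1.05 after *miR-139-3p*. The part of these markers in the values below was not tested.

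After *miR-139-3p*, a large minority of the proteasome genes was lower than in mock, and no interferon-inducible one was. Of the 46 members with a value, 19 were below -0.5, which is 41.3%, against 27.9% of all named genes. Of the same members 1 was above 0.5, against 26.5% of all named genes. These counts move with the scaling. When spike-in probes set it, 28 members were below -0.5 and 0 above, against 37.0% and 20% of all named genes, and when probes detected on every array did, 18 were below and 3 above, against 21.2% and 32.9%. RNA of all cells was pooled on an array, so less RNA per cell and fewer cells that make it cannot be told apart. Below 0 were 37 members, 80.4%, against 52.4% of all named genes, and 9 were above, of which 32 and 4 kept their sign under every scaling tried. The median log2 fold change of the members was -0.40, and that of all 15572 named genes with a value was -0.05. Most members have bright probes, and bright genes as a class were lower: in the 25% of genes with the highest signal, 35.1% were below -0.5 and 11.6% above 0.5, 67.4% below 0 and a median of -0.27. In that class lay 38 members, of which 17 were below -0.5, 44.7%, and 0 were above, with 84.2% below 0 and a median of -0.44.

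After *miR-139-5p*, 0 of the 46 members passed 0.5 in either direction. Among all named genes 12.3% were below -0.5 and 10.7% above 0.5. In the brightest 25% these shares were smaller, at 6.84% and 6.31%, and of the 37 members in that class 0 passed in either direction. The members' log2 fold changes ran from -0.46 for *PSMC4* to 0.40 for *PSMA1*, with a median of -0.04. Between the transfections themselves, 18 members were lower after *miR-139-3p* than after *miR-139-5p* by more than 0.5, where the background was 27.9%, and 0 were higher, where it was 26.4%. The 18 became 32 with spike-in scaling, where the background was 42.9%, and 8 with normexp, where it was 14.9% and so close to the share of members, and 12 of the 18 stayed past the threshold under every scaling tried.

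**Figure D1:**
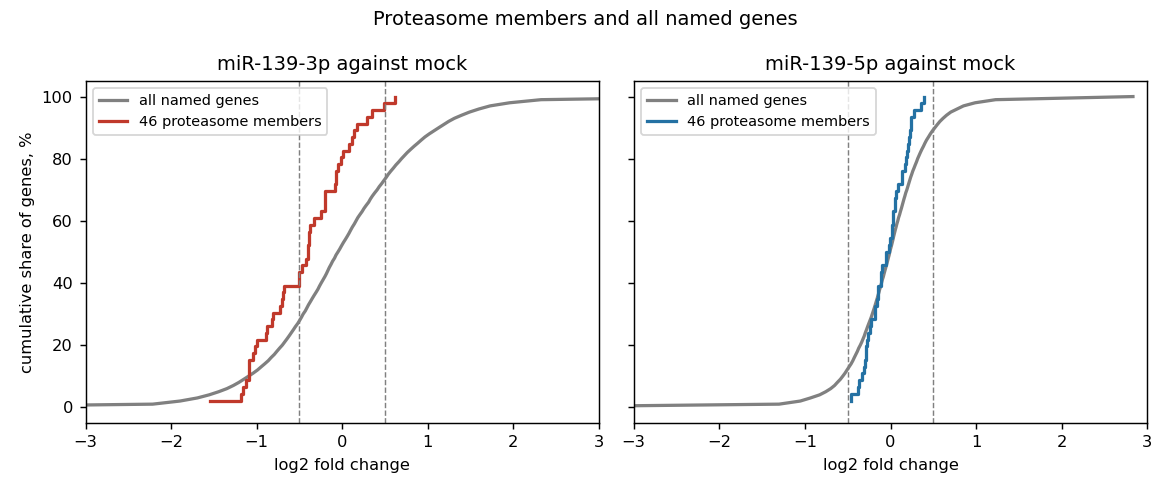
Cumulative share of genes in percent (vertical axis) by log2 fold change against mock (horizontal axis) for *miR-139-3p* and *miR-139-5p*. The grey line is all named genes and the coloured steps are the 46 members with a value; dashed lines mark -0.5 and 0.5. The *miR-139-3p* steps lie to the left of the grey line over most of the range, with a median of -0.40 against -0.05, and the *miR-139-5p* steps stay within the dashed lines.

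The alpha ring forms the gate of the core. *PSMA5* was the member of the ring with the largest difference, at 51.6 on the mock array, 58.1 after *miR-139-5p* and 24.3 after *miR-139-3p*, a log2 fold change of -1.09 after *miR-139-3p*. *PSMA7* read 53.8, 48.5 and 33.0 on the same arrays, a log2 fold change of -0.71 that was -0.48, short of the threshold, with normexp, another background correction. *PSMA4* read 40.0, 47.3 and 28.3, and at -0.4999 it was the member closest to the threshold without passing it. The ring was not uniform: *PSMA6* read 94.1, 100 and 102.0, and differed between arrays by less than the error of the scanner software.

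Over the ring, 2 of 7 members were below -0.5 after *miR-139-3p*, which is 28.6% and close to the 27.9% of all named genes, and the median was -0.39. After *miR-139-5p* 0 of the 7 members passed 0.5 in either direction. Of them 6 lay above 0, also under every alternative, where 50.9% of all named genes lay below 0. The median was 0.24, with *PSMA1* and *PSMA3* highest at 0.40 and 0.36. The scanner software's error of a single member had a median of 0.20, and the error of a group's median is not known. *PSMA3* read 60.9 on the mock array, 78.0 after *miR-139-5p* and 46.5 after *miR-139-3p*. The value of *PSMA1* after *miR-139-5p* rests on a bright probe at 0.20 and a dim one at 0.59. Between the transfections, 4 of 7 members of the ring were below -0.5, 57.1% against 27.9% of all named genes, with *PSMA5* at -1.26. Not all of these calls held: over the alternatives *PSMA7* reached -0.265 and *PSMA4* reached -0.43, while *PSMA3* and *PSMA5* stayed past the threshold.

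The beta ring holds the proteolytic sites. *PSMB5*, the chymotrypsin-like subunit, read 70.2 on the mock array, 61.9 after *miR-139-5p* and 43.6 after *miR-139-3p*, which was 62.1% of mock. *PSMB6*, the caspase-like subunit, read 129.0, 119.0 and 98.5, and *PSMB7*, the trypsin-like subunit, 77.7, 78.5 and 58.8. All constitutive catalytic subunits were thus lowest on the *miR-139-3p* array, and of them *PSMB5* alone passed the threshold, at -0.69, with *PSMB6* at -0.38 and *PSMB7* at -0.40. The lowest beta subunit was *PSMB2*, which has no active site. Its probes read 12.8, 11.2 and 6.61 and 19.7, 17.6 and 11.1 on the same arrays, and their log2 fold changes of -0.95 and -0.83 after *miR-139-3p* lay close together. At the other end *PSMB4*, a structural subunit, read 91.2, 90.9 and 103.0, a log2 fold change of 0.17 that turned below 0 under some scalings. Over the ring 2 of 7 members were below -0.5 after *miR-139-3p*, again 28.6% and close to the 27.9% of all named genes, with a median of -0.40, and all 7 lay between -0.18 and 0.20 after *miR-139-5p*.

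The immunoproteasome subunits *PSMB8* and *PSMB9* lay above 0 after *miR-139-3p* under every alternative, not always past 0.5, while the sign of *PSMB10* changed with the scaling. *PSMB8*, which takes the place of *PSMB5*, read 1.27 on the mock array, 1.39 after *miR-139-5p* and 1.95 after *miR-139-3p*, and at 0.62 it was the only member above 0.5. *PSMB9*, which takes the place of *PSMB6*, read 4.36, 4.93 and 6.14, a log2 fold change of 0.49. *PSMB10*, which takes the place of *PSMB7*, read 25.3, 29.9 and 26.7, and its 0.08 is smaller than the scanner software's error. Each of these genes has 1 probe. White blood cells are rich in these subunits, and *PTPRC*, the marker they share, read 0.110, 0.114 and 0.249 in mock, after *miR-139-5p* and after *miR-139-3p*. The T cell marker *CD3E* was well above background only on the last, at 0.0697. The part of such RNA in the values of *PSMB8* and *PSMB9* was not tested.

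Set against its constitutive counterpart, the inducible subunit's log2 fold change after *miR-139-3p* was larger by 1.31 for *PSMB8* and *PSMB5*, by 0.88 for *PSMB9* and *PSMB6*, and by 0.48 for *PSMB10* and *PSMB7*. The gap had the same sign after *miR-139-5p* and was smaller, at 0.31, 0.29 and 0.22. A gap between genes is the same for any factor by which an array is scaled. A call is not, and *PSMB8* lay between 0.41 and 0.79 over the alternatives. With normexp, which is no such factor, *PSMB8* was at 0.44 and *PSMB5* at -0.53, a smaller gap. The constitutive subunits have brighter probes than their counterparts. Bright genes at large were lower, with a median of -0.27 against -0.05 for all named genes. The part of brightness in these gaps was not tested.

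**Figure D2:**
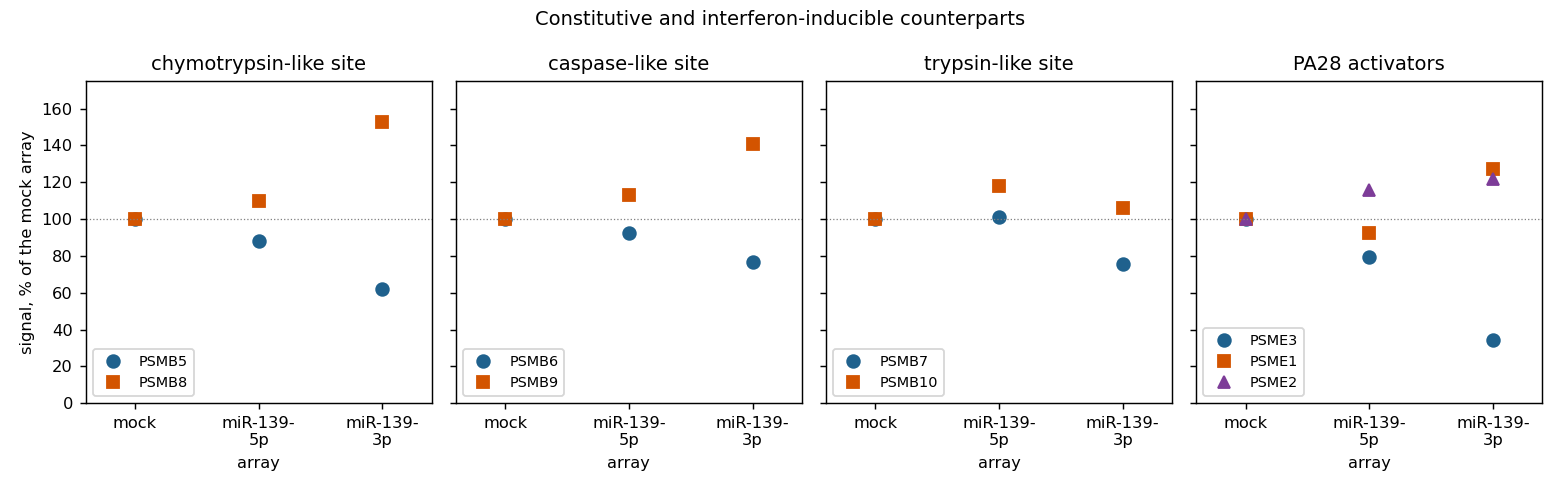
Signal as a percentage of the mock array (vertical axis, from 0) on each of the 3 arrays (horizontal axis) for the constitutive catalytic subunits with their interferon-inducible counterparts and for the PA28 activators; each point is 1 gene on 1 array and the dotted line is the mock level. On the *miR-139-3p* array *PSMB8* stood at 153.0% and *PSMB5* at 62.1%, and *PSME3* stood at 34.3% while *PSME1* and *PSME2* stood at 127.0% and 122.0%.

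Of the 4 activators that bind the core in place of the 19S cap, only *PSME3* passed the threshold after *miR-139-3p*, 25% against 27.9% of all named genes. *PSME3*, which encodes the nuclear activator PA28 gamma, was the lowest of all members after *miR-139-3p*. It read 25.0 on the mock array, 19.9 after *miR-139-5p* and 8.57 after *miR-139-3p*, a log2 fold change of -1.54, and over the alternatives it stayed between -1.75 and -1.27. *PSME1* and *PSME2* encode the interferon-inducible PA28 alpha and beta. *PSME1* read 2.49, 2.30 and 3.18 and *PSME2* read 132.0, 153.0 and 161.0, log2 fold changes of 0.35 and 0.29 that did not reach the threshold, though *PSME1* did with quantile normalization, at 0.51, and with the scaling by detected probes, at 0.52. The log2 fold change of *PSME1* exceeded that of *PSME3* by 1.89 after *miR-139-3p* and by 0.22 after *miR-139-5p*, and that of *PSME2* exceeded it by 1.83 and 0.54. *PSME4*, the PA200 activator, had probes at 3.70, 3.81 and 2.96 and at 1.53, 1.63 and 1.43, and a log2 fold change of -0.21. *PSMF1*, the inhibitor PI31, was at -0.51, just past the threshold, and lay between -0.72 and -0.34 over the alternatives. Its brightest probe read 7.35, 6.09 and 4.51, and its 4 probes gave -0.70, -0.65, -0.63 and -0.05.

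The base of the 19S cap carries a ring of ATPases that unfold the substrate. *PSMC3* read 16.7 on the mock array, 13.7 after *miR-139-5p* and 8.39 after *miR-139-3p*, a log2 fold change of -0.996. *PSMC5* read 10.5, 8.58 and 6.36, and *PSMC4* read 53.6, 38.8 and 33.5, log2 fold changes of -0.73 and -0.68, the latter -0.40 and not past the threshold with normexp. These 3 of the 6 ATPases were called lower, against 27.9% of all named genes and 35.1% of the brightest 25%, and the rest of the ring was not: *PSMC6* read 12.2, 12.6 and 9.65, a log2 fold change of -0.34, and *PSMC1* and *PSMC2* were at 0.00 and -0.01 with probes on both sides of 0. *PSMC4* was also the lowest member after *miR-139-5p*, at -0.46, so that it differed from *miR-139-5p* by only -0.21 on the *miR-139-3p* array.

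The base also holds scaffold subunits and a ubiquitin receptor. *PSMD1*, a scaffold, had probes at 47.6, 49.6 and 28.8 and at 12.7, 11.8 and 4.92 in mock, after *miR-139-5p* and after *miR-139-3p*, log2 fold changes of -0.72 and -1.37. *PSMD2*, the other scaffold, had probes at 118.0, 106.0 and 87.0 and at 9.79, 6.54 and 3.93, log2 fold changes of -0.44 and -1.32. For both genes the dimmer probe gave the larger difference, and the call of *PSMD2*, at -0.88, rests on it. *PSMD4*, a ubiquitin receptor, read 48.4, 41.4 and 45.9 and did not pass in any comparison.

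The lid removes the ubiquitin chain. After *miR-139-3p*, 3 of its 8 members lay between -1.18 and -1.09 and the others lay between -0.42 and -0.07. These 3 were the lid members below -0.5, which is 37.5%, against 27.9% of all named genes and 35.1% of bright genes. By this count the lid lay close to bright genes at large. *PSMD13* read 13.6 on the mock array, 11.3 after *miR-139-5p* and 5.98 after *miR-139-3p*, a log2 fold change of -1.18. *PSMD3* read 14.9, 12.2 and 6.65, and *PSMD11*, a scaffold subunit whose level is known to limit 26S assembly, read 18.0, 18.2 and 8.46, log2 fold changes of -1.16 and -1.09. On the *miR-139-3p* array they stood at 44.1%, 44.8% and 47.0% of mock. *PSMD14*, the deubiquitinase of the lid, had probes at 45.1, 35.1 and 33.8 and at 2.28, 1.74 and 1.81, and it was at -0.38 after either miRNA. *PSMD8* read 93.1, 95.1 and 69.6, at -0.42, and *PSMD12* read 10.2, 10.6 and 8.56, at -0.25.

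The lid also holds the members measured with the best precision. *PSMD6* and *PSMD7* each have 1 probe printed in 10 spots. For *PSMD6* the spots ran from 11.0 to 12.2 on the mock array, from 10.3 to 11.8 after *miR-139-5p* and from 10.1 to 11.6 after *miR-139-3p*, so the arrays overlapped. Its log2 fold change of -0.08 after *miR-139-3p* was about the size of the SD of a difference between single spots, 0.07. For *PSMD7* the spots ran from 28.6 to 31.3 on the mock array, from 34.3 to 36.2 in the 8 spots kept after *miR-139-5p*, and from 26.6 to 30.4 after *miR-139-3p*. The *miR-139-5p* spots lay above all others, at 0.22, and those of mock and *miR-139-3p* overlapped, at -0.07. Spots share their array and culture, so this spread is technical. These subunits, close to mock, sit in the same complex as *PSMD13*, *PSMD3* and *PSMD11*.

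Over the 17 genes of the 19S base and lid, 8 were below -0.5 after *miR-139-3p*, 47.1%, 0 were above 0.5 and the median was -0.42. The 14 genes of the core rings had 4 below, 28.6%, 0 above and a median of -0.40. Of all named genes 27.9% were below -0.5 and of the brightest 25% it was 35.1%, so the core rings did not stand out by their count.

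The assembly chaperones guide the parts of the core and cap together and leave the finished particle. Those of the core had a median of -0.96 after *miR-139-3p*. Of all 7 chaperones, 5 were below -0.5 after *miR-139-3p*, against 27.9% of all named genes, 7 were below 0 and the median was -0.83. One of the 5, *PSMD9*, was not past the threshold with the brightest probe of each gene or with normexp. *PSMG1*, a chaperone of the alpha ring, read 32.5 on the mock array, 37.3 after *miR-139-5p* and 14.9 after *miR-139-3p*. It was at -1.13 against mock and, at -1.32, had the largest difference of all members between the transfections. *PSMG2*, its partner in a heterodimer, read 3.92, 3.32 and 2.98, at -0.40, and was not called. Of the other heterodimer, *PSMG3* read 11.3, 10.2 and 6.39, and *PSMG4* read 7.39, 5.98 and 3.48, log2 fold changes of -0.83 and -1.08. A further probe of *PSMG4* was not well above background on any array.

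The chaperones of the 19S base differed among themselves. *PSMD5* had probes at 4.23, 4.53 and 2.50 and at 0.731, 0.636 and 0.399 in mock, after *miR-139-5p* and after *miR-139-3p*, both lower after *miR-139-3p*, at -0.76 and -0.87. *PSMD10*, also known as gankyrin, had probes at 4.55, 3.55 and 4.12 and at 0.818, 0.555 and 0.683. It was lowest after *miR-139-5p*, at -0.46, and at -0.20 after *miR-139-3p*. *PSMD9* cannot be given 1 value with confidence: its bright probe read 37.5, 29.8 and 31.4, a log2 fold change of -0.26, and its dim probe 0.407, 0.348 and 0.118, a log2 fold change of -1.79. Its call after *miR-139-3p*, at -1.02, rests on the dim probe, and with the bright probe alone the median of the group went from -0.82 to -0.26.

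**Figure D3:**
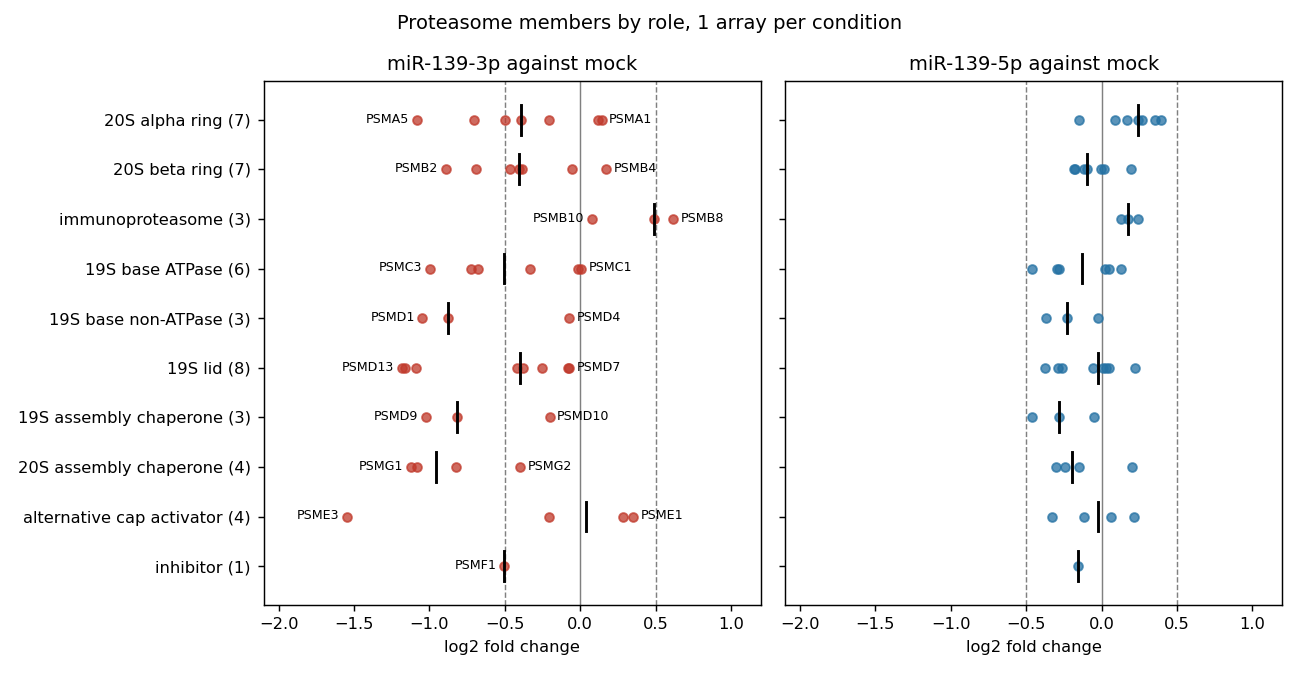
Log2 fold change against mock (horizontal axis) of every member with a value, by role (vertical axis, number of members in brackets), after *miR-139-3p* and after *miR-139-5p*; each point is 1 gene, the black bar is the median of the group and dashed lines mark -0.5 and 0.5. After *miR-139-3p* the chaperone groups have medians of -0.82 for the 19S, which the dim probe of *PSMD9* sets in part, and -0.96 for the 20S, the immunoproteasome group has one of 0.49, and *PSME3* at -1.54 is the lowest point. After *miR-139-5p* every point lies between the dashed lines.

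Near the threshold, the last members past -0.5 after *miR-139-3p* were *PSMB5* at -0.69, *PSMC4* at -0.68 and *PSMF1* at -0.51, and the first short of it were *PSMA4* at -0.4999, *PSMB1* at -0.47 and *PSMD8* at -0.42. *PSMB1*, a structural beta subunit, had probes at 127.0, 128.0 and 107.0 and at 42.8, 37.1 and 26.6 in mock, after *miR-139-5p* and after *miR-139-3p*, log2 fold changes of -0.25 and -0.69. Of the 19 genes called lower, 13 rest on 1 probe, and of the 6 with more, 3 had every probe below -0.5: *PSMB2*, *PSMD1* and *PSMD5*. The others, *PSMD2*, *PSMD9* and *PSMF1*, had probes on either side of the threshold.

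The error that the arrays allow is technical. The scanner software's error of a member's log2 fold change had a median of 0.20, with the range from 0.20 to 0.27 in the comparison of *miR-139-3p* with mock. Over the 13 members with 2 or more probes, the SD between probes had a median of 0.28 in that comparison, as it did over all genes with 2 or more probes, and of 0.10 for *miR-139-5p* against mock. The largest was 1.08, for *PSMD9*. In 3 of the 13 genes, *PSMA1*, *PSMC1* and *PSMC2*, the probes lay on both sides of 0 after *miR-139-3p*. Values such as -0.20 or 0.12 are therefore within what probes of the same gene differ by. Those of *PSME3*, *PSMD13*, *PSMD3* and *PSMG1* are several times larger than the median of either error. Each of these genes has 1 probe, so its own spread between probes is not known, and that of *PSMD9* was 1.08. None of these errors holds the spread between cultures.

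**Figure D4:**
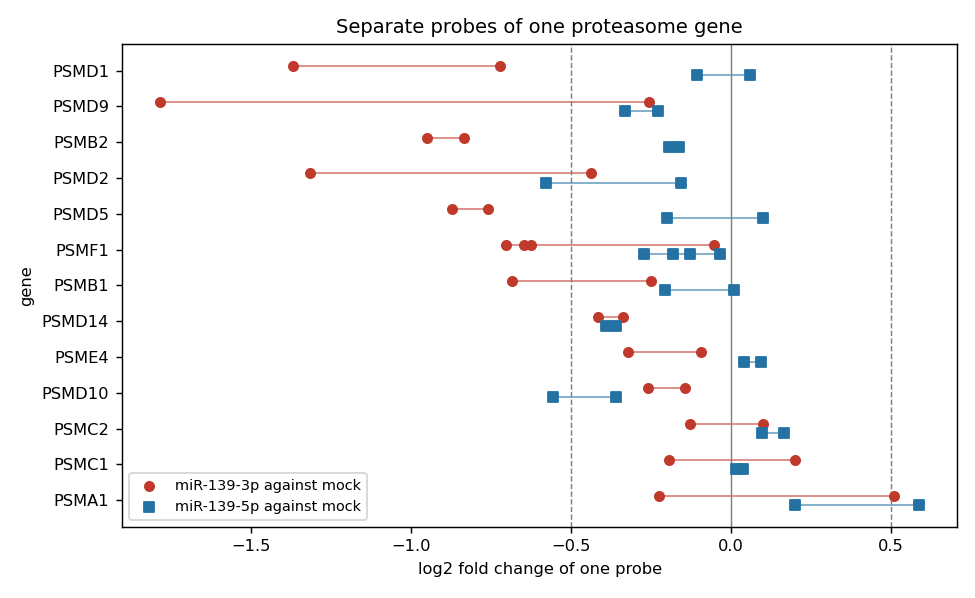
Log2 fold change against mock of each probe (horizontal axis) for the 13 members with 2 or more probes well above background (vertical axis), with circles for *miR-139-3p* and squares for *miR-139-5p*; a line joins the probes of 1 gene in 1 comparison and dashed lines mark -0.5 and 0.5. *PSMD9* has the widest gap after *miR-139-3p*, 1.53, and *PSMB2* and *PSMD5* have probes close together below -0.5.

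Proteasome genes that the naming rule does not reach, and partners of the proteasome, were taken from lists of known genes. Of 10 further subunits and assembly factors with a value, 2 were below -0.5 after *miR-139-3p* and 0 above, against 27.9% and 26.5% of all named genes, with a median of -0.41. *AKIRIN2*, which helps to import the proteasome into the nucleus, read 2.30 on the mock array, 1.68 after *miR-139-5p* and 1.46 after *miR-139-3p*, at -0.66. *ZFAND5*, a proteasome activator, was at -0.62. *ADRM1*, a ubiquitin receptor of the base, read 8.80, 7.18 and 6.50, at -0.44. *POMP*, the chaperone of the beta ring, read 0.837, 1.08 and 0.809, at -0.05, and *SEM1*, the smallest subunit of the lid, was at 0.25.

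Of 6 regulators of proteasome genes with a value, 4 were below -0.5 after *miR-139-3p* and 1 was above, against 27.9% and 26.5% of all named genes, and the median was -0.57. *NFE2L1*, the transcription factor that raises proteasome genes, read 18.8 on the mock array, 19.5 after *miR-139-5p* and 12.7 after *miR-139-3p*, at -0.57. Its processing enzymes *DDI2* and *NGLY1* were at -0.87 and -0.58, and *MAFG*, a binding partner, at -0.62. Scaling by probes detected on every array moved the median of all named genes from -0.05 to 0.12. *NFE2L1*, *NGLY1* and *MAFG* lie closer to -0.5 than that shift, so their calls are uncertain. *DDI2* was dim, at 0.126 on the mock array and 0.0687 after *miR-139-3p*. *MAFK*, a further small MAF partner, was at -0.34 and did not pass, and *MAFF*, another, read 0.620, 0.471 and 1.86, at 1.58. *NFE2L2* was not well above background on any array with the 1 probe it has. After *miR-139-5p*, 0 of these genes passed 0.5, against 12.3% below and 10.7% above of all named genes, and *NFE2L1* was at 0.05. Of 11 ubiquitin and substrate delivery genes, *RAD23B*, a shuttle that brings substrates to the proteasome, was the only one past the threshold, at -0.72, where 27.9% of all named genes were below -0.5 and 26.5% above 0.5, and the median was -0.13. Its 2 probes differed with an SD of 1.04, so that call rests on 1 of them.

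The MHC class I list, which the immunoproteasome serves, was split. Of 11 genes 6 were above 0.5 after *miR-139-3p* and 3 below -0.5, against 26.5% and 27.9% of all named genes, with a median of 0.69. *TAP1*, the peptide transporter subunit, read 9.91 on the mock array, 9.39 after *miR-139-5p* and 19.6 after *miR-139-3p*, at 0.98. Higher with it were *HLA-B* at 0.81, *HLA-C* at 0.69, the peptide trimming enzymes *ERAP1* at 0.69 and *ERAP2* at 0.97, and *NLRC5*, which activates class I genes, at 0.93. Values of the HLA genes are uncertain, as their sequences are alike and a probe can bind RNA of more than its own gene. Spike-in scaling moved the median of all named genes from -0.05 to -0.24. *HLA-C* and *ERAP1* lie about as far above 0.5 as that shift, so their calls are uncertain too. Lower were *B2M*, the light chain of class I, at -0.72, *TAP2*, the other transporter subunit, at -0.71, and the loading chaperone *TAPBP* at -0.70. After *miR-139-5p*, 1 gene of the list was above 0.5, *ERAP1* at 0.53, and 0 were below -0.5, against 10.7% and 12.3% of all named genes.

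Promoters are shown for the inducible members and for some of the lowest members after *miR-139-3p*, since their log2 fold changes differed in sign. That of *PSMB10* was close to 0 and its sign changed with the scaling. RefSeq on GRCh38.p14 gave a window of 250 bases before and 50 after the start of 42 of the 48 members. Each window was searched on both strands for TGACNNNGC, the antioxidant response element, CCAAT, bound by NF-Y, CCGGAAG, bound by ETS factors, the interferon-stimulated response element, which is TTTC, any pair of bases and TTTC again, and TTCNNNGAA, the gamma-activated site. Every match is in capitals, and a match is a run of letters and no proof of a site. Where the motifs abut or overlap, as they do in some windows, the capitals merge.

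The inducible members *PSMB8*, *PSMB9*, *PSMB10*, *PSME1* and *PSME2* are given first.
*PSMB8*, chr6:32844630-32844929, minus strand: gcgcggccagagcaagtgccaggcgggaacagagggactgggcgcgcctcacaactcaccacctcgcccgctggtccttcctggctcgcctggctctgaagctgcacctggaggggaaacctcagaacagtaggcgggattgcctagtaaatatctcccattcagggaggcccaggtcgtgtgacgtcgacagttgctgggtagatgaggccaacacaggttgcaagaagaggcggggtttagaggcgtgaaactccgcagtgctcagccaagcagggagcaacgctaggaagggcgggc
*PSMB9*, chr6:32853942-32854241, plus strand: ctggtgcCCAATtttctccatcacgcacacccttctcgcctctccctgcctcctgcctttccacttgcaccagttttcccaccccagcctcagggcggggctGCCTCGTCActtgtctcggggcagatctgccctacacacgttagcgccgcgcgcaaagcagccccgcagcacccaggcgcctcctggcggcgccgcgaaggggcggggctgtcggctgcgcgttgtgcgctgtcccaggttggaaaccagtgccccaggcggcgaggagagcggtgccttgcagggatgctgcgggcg
*PSMB10*, chr16:67936801-67937100, minus strand: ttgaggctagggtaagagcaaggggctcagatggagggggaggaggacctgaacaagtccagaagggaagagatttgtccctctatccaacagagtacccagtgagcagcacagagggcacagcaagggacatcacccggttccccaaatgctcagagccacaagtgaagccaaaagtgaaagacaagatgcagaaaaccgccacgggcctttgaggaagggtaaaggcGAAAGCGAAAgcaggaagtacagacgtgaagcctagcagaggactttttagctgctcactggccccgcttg
*PSME1*, chr14:24135944-24136243, plus strand: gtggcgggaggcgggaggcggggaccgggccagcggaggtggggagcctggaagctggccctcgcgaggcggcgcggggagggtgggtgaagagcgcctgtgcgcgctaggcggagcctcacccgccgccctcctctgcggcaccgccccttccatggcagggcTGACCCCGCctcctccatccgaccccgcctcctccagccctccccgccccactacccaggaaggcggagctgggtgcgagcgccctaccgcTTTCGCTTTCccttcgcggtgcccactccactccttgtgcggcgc
*PSME2*, chr14:24146561-24146860, minus strand: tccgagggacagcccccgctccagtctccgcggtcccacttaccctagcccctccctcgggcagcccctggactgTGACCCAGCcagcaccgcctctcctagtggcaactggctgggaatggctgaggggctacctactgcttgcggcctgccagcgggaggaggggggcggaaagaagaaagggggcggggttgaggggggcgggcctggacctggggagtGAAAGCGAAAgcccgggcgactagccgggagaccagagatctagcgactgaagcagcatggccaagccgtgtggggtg
In *PSME1* the first capitals are an antioxidant response element and the second an interferon-stimulated response element, TTTCGCTTTC. The same motif is read on the other strand as GAAAGCGAAA in *PSMB10* and *PSME2*, where it starts 21 and 28 bases before the start of the gene. The window of *PSMB8*, the member with the highest log2 fold change, holds none of the motifs searched. That of *PSMB9* holds no interferon-stimulated response element, but it shares its first bases with that of *TAP1*, which runs the opposite way at chr6:32853655-32853954 and holds the motif in overlapping copies.

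Of the members lower after *miR-139-3p*, *PSME3*, *PSMD13*, *PSMG1* and *PSMG4* are given. Left out are *PSMD3* at -1.16 and *PSMD11* at -1.09, which were also lower than *PSMG4*. The window of *PSMD3* holds antioxidant response elements, CCAAT and gamma-activated sites, and that of *PSMD11* holds none of the motifs.
*PSME3*, chr17:42833147-42833446, plus strand: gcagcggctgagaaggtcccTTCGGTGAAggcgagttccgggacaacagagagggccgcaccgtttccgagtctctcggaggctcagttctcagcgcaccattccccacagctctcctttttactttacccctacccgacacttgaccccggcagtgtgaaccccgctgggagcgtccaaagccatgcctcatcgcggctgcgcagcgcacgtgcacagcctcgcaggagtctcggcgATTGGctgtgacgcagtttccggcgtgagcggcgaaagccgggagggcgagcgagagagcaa
*PSMD13*, chr11:236726-237025, plus strand: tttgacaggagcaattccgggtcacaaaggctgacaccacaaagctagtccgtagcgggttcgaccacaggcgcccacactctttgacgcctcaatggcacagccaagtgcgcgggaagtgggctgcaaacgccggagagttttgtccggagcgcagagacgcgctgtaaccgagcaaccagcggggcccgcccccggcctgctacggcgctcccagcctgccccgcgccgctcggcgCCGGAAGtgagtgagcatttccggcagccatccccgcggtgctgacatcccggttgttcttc
*PSMG1*, chr21:39183402-39183701, minus strand: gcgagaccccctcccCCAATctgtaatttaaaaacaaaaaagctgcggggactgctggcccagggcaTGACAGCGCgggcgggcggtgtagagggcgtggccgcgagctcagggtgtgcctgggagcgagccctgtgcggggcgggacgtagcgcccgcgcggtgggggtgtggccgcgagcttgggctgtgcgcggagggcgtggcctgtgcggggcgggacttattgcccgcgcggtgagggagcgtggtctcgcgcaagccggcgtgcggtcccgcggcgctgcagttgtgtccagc
*PSMG4*, chr6:3258697-3258996, plus strand: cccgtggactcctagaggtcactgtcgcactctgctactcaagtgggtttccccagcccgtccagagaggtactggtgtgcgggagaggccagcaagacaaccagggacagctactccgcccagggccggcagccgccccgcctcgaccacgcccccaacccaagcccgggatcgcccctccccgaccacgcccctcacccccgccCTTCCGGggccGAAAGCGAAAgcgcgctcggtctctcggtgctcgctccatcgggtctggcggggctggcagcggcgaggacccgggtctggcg
The capitals are, in order, a gamma-activated site and a reversed CCAAT in *PSME3*, the ETS motif 12 bases before the start in *PSMD13*, and CCAAT and an antioxidant response element in *PSMG1*. *PSMG4* holds the ETS motif reversed and, after it, GAAAGCGAAA, the same 10 letters as *PSMB10* and *PSME2*, and it was at -1.08 after *miR-139-3p* where these were at 0.08 and 0.29.

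Over the members with a window, the interferon-stimulated response element was in 14.3%, against 3.17% of 15843 protein-coding promoters. The 6 genes that hold it were *PSMB10*, *PSME1*, *PSME2*, *PSMB4*, *PSMA4* and *PSMG4*, with log2 fold changes after *miR-139-3p* of 0.08, 0.35, 0.29, 0.17, -0.50 and -1.08. The antioxidant response element was in 31.0% of members and in 14.3% of all promoters. It was in 6 of 17 windows of members below -0.5 and in 7 of 23 windows of the others, 35.3% and 30.4%, shares of like size. CCGGAAG was in 31.0% of members and in 14.2% of all promoters, and in the lid in 6 of 8. It was in 17.6% of the windows of members below -0.5 and in 39.1% of the others, and the interferon-stimulated response element was in 5.88% and 21.7%. CCAAT was in 45.2% and 36.4%, and TTCNNNGAA in 11.9% and 6.97%, of members and of all promoters, and TTCNNNGAA was in 17.6% of the windows of members below -0.5 and in 4.35% of the others, all from small counts.

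The genes whose symbols only start like a member's were kept out of all counts above. The non-coding RNAs with a value lay above 0 after *miR-139-3p*, and of such genes at large 49.7% were above 0.5 after *miR-139-3p* and 8.84% after *miR-139-5p*. *PSMB8-AS1*, which lies beside *PSMB8*, read 0.112 on the mock array, 0.126 after *miR-139-5p* and 0.226 after *miR-139-3p*, at 1.02. *PSMD7-DT* read 0.191, 0.247 and 0.430, at 1.17, while its neighbour *PSMD7* was at -0.07. *PSMG3-AS1* had its brightest probe at 15.3, 16.0 and 48.7, at 1.67, another at 0.97 and the last at -0.45, while *PSMG3* was at -0.83. *PSMA3-AS1* had probes at 1.52 and 0.16, and *PSMD6-AS2* had 1 probe with a value, at 0.75. Most of these values depend on the processing: the lowest over the alternatives was 0.10 for *PSMB8-AS1*, 0.25 for *PSMD7-DT*, 0.52 for *PSMG3-AS1*, 0.16 for *PSMA3-AS1* and 0.00 for *PSMD6-AS2*. *PSMD14-DT* was not well above background on any array. Of the coding genes, *PSMC3IP*, a recombination factor, read 3.42, 2.54 and 2.08, at -0.72, and *PSME3IP1*, a protein that binds PA28 gamma, had probes at -1.02 and -0.66, beside *PSME3* at -1.54.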

How the data were processed

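Labelled RNA from each condition was read on 1 array by Feature Extraction 12.1.1.1, per the submitters' processing notes. The authors deposited the spot intensity after background subtraction, without scaling between arrays, and a table of log2 values. Set against the scanner values, the deposited log2 values were the quantile-normalized signals, and they served as an alternative. Other flags that the authors deposited mark spots as outliers (614 were left out for mock, 935 after *miR-139-5p* and 1526 after *miR-139-3p*) or as well above background.

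From the intensities, log2 of the signal minus log2 of the array's 75th percentile over spots other than controls was computed, and spots of a probe were averaged. A probe was well above background where at least 50% of its spots were. Accessions without versions were named through RefSeq (GRCh38.p14), 24751 of 25277 NM accessions. No probe position is given, as the probes come from a different genome build. The members and lists were chosen with earlier results of these data known. The text names the catalytic, immunoproteasome, chaperone, activator and inhibitor members, those past 0.5 and the extremes of each group, and of the lists the genes past 0.5 with *TAP1*, *NFE2L1*, *NFE2L2*, *ADRM1*, *SEM1* and *POMP*. Any other member or gene of these lists was named after its values were seen. No tool for testing was run, as each condition had 1 array. Some genes of the same functions are not analysed here and are in no count. The steps were tested on simulated data. In all, 11 alternatives were tried. The work used R 4.3.3 with limma 3.58.1 (normexp), and pandas 2.3.3, numpy 2.4.6, matplotlib 3.10.9 and scipy 1.17.1 under Python 3.11.15.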

Additional observations from a re-analysis of the deposited data

How the results depend on the processing

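Of the 19 members below -0.5 after *miR-139-3p*, 19 kept their sign under all scalings and 18, all but *PSMF1*, stayed past the threshold, while of the 9 above 0 only 4 kept their sign. The count above 0.5 after *miR-139-3p*, 1 gene, became 3 with quantile normalization, 3 when only probes detected everywhere set the 75th percentile, 2 with the deposited log2 values, and 0 with spike-in scaling, no scaling or a threshold of 1. The count below -0.5 became 9 at a threshold of 1 and 15 with normexp, against 15.1% of all named genes, where *PSMA7*, *PSMC4*, *PSMD9* and *PSMF1* no longer passed. After *miR-139-5p*, spike-in scaling put 1 member above 0.5 and no scaling put 2 below -0.5. For *miR-139-3p* against *miR-139-5p*, the count above 0.5, 0 genes, became 3 (quantile), 3 (detected probes), 2 (normexp) and 2 (deposited values). The count below -0.5, 18 genes, became 32 with spike-in scaling, 8 with normexp and 5 at a threshold of 1, and the median became -0.69 with spike-in scaling. The median of the 19S chaperones after *miR-139-3p*, -0.82, became -0.26 with the brightest probe of each gene and -0.24 with normexp. For *miR-139-3p* against *miR-139-5p* *PSMD9* and the median of its group turned to 0.075 with the brightest probe of each gene, because that probe of *PSMD9* differs from the other. The causes of the other shifts were not tested. Scaling moved the median of all named genes after *miR-139-3p* from -0.05 to -0.24 (spike-in), -0.26 (none) and 0.12 (detected probes), and after *miR-139-5p* from -0.01 to 0.11 (spike-in). Of all values recomputed, those given here included, 833 stayed, 65 moved and 2 turned. Signal over background limits the dim probes, those of *PSMA8* and *PSMB11* among them.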

Other observations

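Within complexes of fixed stoichiometry the measured differences after *miR-139-3p* were uneven. In the lid *PSMD13*, *PSMD3* and *PSMD11* lay between -1.18 and -1.09 and *PSMD6* and *PSMD7* at -0.08 and -0.07. In the heterodimer of *PSMG1* and *PSMG2* the values were -1.13 and -0.40. In the ATPase ring they ran from -0.996 for *PSMC3* to 0.00 for *PSMC1*. Of the genes in this paragraph only *PSMC1* has more than 1 probe, at -0.19 and 0.20. Probes of the same member differed by up to 1.53, so differences between probes and between subunits cannot be told apart here.

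Probes of the same member disagreed most for *PSMD9*, with a gap of 1.53 between its probes, and the dimmer probe was also the lower one for *PSMD1* and *PSMD2*. *PSMA1* had its bright probe at -0.22 and its dim probe at 0.51 after *miR-139-3p*.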
